A study of Pimephales promelas with 27 samples.

Results

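The probes described here are the 50 of a fathead minnow array that read lower, on average, in every group of larvae exposed to naphthenic acids than in the salt control of the same source, and did so by the widest margin. The array holds 15208 probes, and 10108 of them were well above background on all 27 arrays and could be chosen. For each of these, 6 differences were taken, each dose minus the salt control of its own source, and the members were chosen as the 50 probes whose least negative difference was lowest. Signals are log2 processed signals minus the 75th percentile of their array, so 0 is the level of a fairly bright probe and a difference of -1 is a fold of 0.5. Because these values chose the members, the falls are given as a description and support nothing.

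The series asked how increasing doses of 3 sources of naphthenic acids change the transcriptome of fathead minnow (Pimephales promelas), exposed as embryos until they hatched. Total RNA of newly hatched larvae was labelled with Cy3 and hybridised to 27 one-colour Agilent arrays, 3 for each of 9 groups. The exposed groups received fresh oil sands process water at 5 or 10 ppm, aged oil sands process water at 10 or 20 ppm, or pure naphthenic acids at 1.25 or 2.5 ppm, and each source had a salt control of its own. What the ppm of a process water counts and what the salt was are not stated in the labels. Nor do these tell separate cultures of embryos from repeat samples of one, so the p-values cover only the spread among the 3 samples of each group, and that spread may be technical.

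Naphthenic acids are carboxylic acids of crude oil, mostly with saturated rings, that dissolve into the water used to wash bitumen out of oil sand. They are regarded as a main source of the toxicity of that water to fish, and their mixture changes as the water ages in tailings ponds because microbes degrade some of the acids faster than others. The fathead minnow is a small North American freshwater fish that is widely used to test effluents, and its embryos and larvae are among the stages most used.

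The files pair the probes with contig names or sequence numbers, not with genes, and 0 of the 50 members matched a gene of the reference table. The members are therefore given by probe identifier, without a gene name or a role, and no list of pathway or tissue marker genes could be counted among them. The tissue of the larvae could not be checked against markers for the same reason.

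The 75th percentile of the processed signal ran from 582 to 2044 between arrays, each array had 10930 to 14981 probes well above background, and saturated probe spots were absent. Of the 27 arrays, 5 stood apart: fresh 10 ppm replicate 1, aged 20 ppm replicates 4 and 6, and aged salt replicates 7 and 9. Their scanner signals ranked the probes differently from the authors' value table, with Spearman correlations of 0.871 to 0.982 across probes, against 0.9996 to 0.9997 on each of the other 22. They held 1184 of the probe spots flagged as not uniform, against 84 on the other 22, and the dimmest 10% of probes lay 0.77 to 4.01 above the mean of the others on the log2 scale. Without them the aged salt control is 1 array, aged salt replicate 8, and aged 20 ppm is 1 array too. Counts and medians of the members that touch the fresh 10 ppm or aged groups are therefore mostly also given without the 5. So are most probes described singly.

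The size of the members' differences describes the choice and does not compare the sources. The median difference over the 50 members was -0.56 at fresh 5 ppm and -0.56 at fresh 10 ppm, folds of 0.677 and 0.679. The value at fresh 10 ppm was -0.35 without replicate 3 of that group. It was -0.64 at aged 10 ppm and -0.46 at aged 20 ppm, folds of 0.641 and 0.729. It was -0.48 at pure 1.25 ppm and -0.73 at pure 2.5 ppm, folds of 0.718 and 0.602. With each array left out the value at pure 2.5 ppm ran from -0.92 to -0.51. Over all 10108 probes that could be chosen the medians of the same 6 differences lay between -0.06 and 0.10. The rule fixed that all 50 members fell in all 6. Averaged over the 6 differences the members ranged from -1.25 to -0.48, with a median of -0.59, and 2 members averaged below -1.

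Being lower in all 6 comparisons was common on this array, and so was being higher in all 6. Of the 10108 probes, 1302 (12.9%) had all 6 differences below 0 and 1636 (16.2%) had all 6 above 0. The least negative difference of the last member, UF_Ppr_AF_111356, was -0.37, and 176 probes were raised in all 6 comparisons by at least that size. The limit falls in a continuous run of values. Just inside it stood UF_Ppr_AF_117082 at -0.367 and UF_Ppr_AF_111356 at -0.365, and just outside it UF_Ppr_AF_101545 at -0.363 and UF_Ppr_AF_108045 at -0.361.

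Few members passed limma's test across all 14738 tested probes in the comparisons that chose them. None was called lower at an adjusted p below 0.05 in 4 comparisons: fresh 5 ppm, where 0.0% of all probes were called lower, aged 10 ppm (0.0136%), aged 20 ppm (0.00679%) and pure 1.25 ppm (0.0%). Lower at an unadjusted p below 0.05 were 18 members for fresh 5 ppm, 25 for aged 10 ppm, 7 for aged 20 ppm and 12 for pure 1.25 ppm, against 4.95%, 13.1%, 2.05% and 3.10% of the 10108 probes. At fresh 10 ppm 1 member was called, against 0.102% of all probes, and 22 passed unadjusted, against 9.25% of the 10108. At pure 2.5 ppm 4 members were called, against 0.217% of all probes, and 29 passed unadjusted, against 8.47% of the 10108. With the 5 arrays left out, 29 members passed unadjusted at fresh 10 ppm and, for aged, 5 at 10 ppm and 1 at 20 ppm, against 8.90%, 1.78% and 1.36% of the 10108. Since the rule used these contrasts, nothing is read from the counts.

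Of the 5 called members, 1 was among the first 10 ranks, UF_Ppr_AF_104438 at rank 6. UF_Ppr_AF_116541, rank 11, was called at fresh 10 ppm, where its difference was -1.22 ± 0.26 (SE, limma, adjusted p = 0.0423). At pure 2.5 ppm UF_Ppr_AF_107291, rank 32, had the smallest adjusted p (-1.03 ± 0.20, SE, limma, adjusted p = 0.00488). The others were UF_Ppr_AF_113381 at -1.04, UF_Ppr_AF_112506 at -0.98 and UF_Ppr_AF_104438 at -0.87, with limma adjusted p of 0.0197, 0.0348 and 0.0438. Within pure 2.5 ppm all 4 read lowest in replicate 4. The SE pools the spread of all groups, while UF_Ppr_AF_107291 had an SD of 0.55 within pure 2.5 ppm. With the 5 arrays left out, UF_Ppr_AF_116541 was at -1.23 at fresh 10 ppm and was not called there. The share of all probes called in that fit is not given here, so nothing is read from the lost call. The pure differences use none of the 5 arrays.

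The groups overlapped for most members in at least 1 comparison. All 3 exposed arrays lay below all 3 salt arrays for 38 members at fresh 5 ppm and 22 at fresh 10 ppm, against 13.7% and 10.4% of the 10108 probes with that order. They did so for 31 members at aged 10 ppm and 18 at aged 20 ppm (11.9% and 3.40% of probes), and for 25 at pure 1.25 ppm and 28 at pure 2.5 ppm (9.73% and 15.8%). On the arrays that did not stand apart, the counts were 33 for fresh 10 ppm (16.3% of probes), 34 for aged 10 ppm (25.8%) and 44 for aged 20 ppm (40.4%), the last with 1 array on each side. A member had no overlap in a median of 3 of the 6 comparisons. Only UF_Ppr_AF_107291 and UF_Ppr_AF_117885 had none in all 6, UF_Ppr_AF_104638 overlapped in all 6, and 12 of the 10108 probes reached 6. These members are named because of these values.

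The probe with the lowest limit was UF_Ppr_AF_106069, on contig FJU_SB_30.607.C1. It read -1.67, -0.94 and -1.32 at fresh 5 ppm and -0.94, -0.82 and -1.74 at fresh 10 ppm, against 0.31, -0.24 and -0.32 in the fresh salt control. It read -1.77, -0.36 and -0.91 at aged 10 ppm and -0.04, -1.33 and -1.67 at aged 20 ppm, against 0.72, -0.89 and 0.06 in the aged salt control. It read -1.80, 0.65 and -2.13 at pure 1.25 ppm and -2.61, -1.35 and -1.16 at pure 2.5 ppm, against 0.39, -0.25 and -0.39 in the pure salt control. Both fresh groups and pure 2.5 ppm lay wholly below their controls, while pure 1.25 ppm replicate 2 was above every salt array but aged salt replicate 7. Its 6 differences ran from -1.62 at pure 2.5 ppm to -0.98 at both aged doses, each with an SE of 0.62. The aged differences depended on the arrays and values used: without the 5 arrays they were -0.13 at 10 ppm and -0.45 at 20 ppm, and in the authors' values -1.19 and -2.19.

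UF_Ppr_AF_118772, on contig FJU.9931.C3, had the lowest of all members' differences at fresh 5 ppm, pure 1.25 ppm and pure 2.5 ppm. It read -2.40, -1.74 and -1.97 at fresh 5 ppm and -1.12, -0.97 and -2.46 at fresh 10 ppm, against -0.15, -0.61 and -0.62 in fresh salt. It read -2.73, -1.23 and -2.17 at aged 10 ppm and -0.66, -2.63 and -2.44 at aged 20 ppm, against -0.41, -1.82 and -0.64 in aged salt. It read -2.40, -0.70 and -2.74 at pure 1.25 ppm and -3.46, -2.44 and -1.28 at pure 2.5 ppm, against -0.14, -1.0 and -1.16 in pure salt. The same groups as for the first probe were free of overlap, and the same arrays stood out, with aged salt replicate 8 low and pure 1.25 ppm replicate 2 high. Its differences were -1.58 at fresh 5 ppm, -1.18 at pure 1.25 ppm and -1.62 at pure 2.5 ppm, with an SE of 0.64. Its aged differences were -1.09 at 10 ppm and -0.96 at 20 ppm with all arrays, -0.23 and -0.81 without the 5, and -1.07 and -1.23 in the authors' values.

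UF_Ppr_AF_112859 had rank 3, with differences from -1.23 at fresh 5 ppm to -0.58 at pure 1.25 ppm. It read -1.88, -1.80 and -1.62 at fresh 5 ppm and -1.64, -2.08 and -1.55 at fresh 10 ppm, against -0.78, -1.07 and 0.22 in fresh salt. It read -1.08, -0.42 and -1.12 at aged 10 ppm and -1.79, -0.47 and -1.30 at aged 20 ppm, against -0.50, -0.32 and 0.05 in aged salt. It read -1.33, -0.73 and -0.82 at pure 1.25 ppm and -1.33, -1.02 and -1.66 at pure 2.5 ppm, against -0.30, -0.54 and -0.29 in pure salt. The fresh and pure groups did not overlap with their controls, and in each aged group 1 array did. Its aged differences of -0.62 at 10 ppm and -0.93 at 20 ppm became -0.56 and -0.15 without the 5 arrays, and were -0.64 and -1.99 in the authors' values.

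UF_Ppr_AF_107291, 1 of the 2 members free of overlap, is on contig FJU.8950.C2. It read -0.76, -0.95 and -0.80 at fresh 5 ppm and -0.71, -0.68 and -1.14 at fresh 10 ppm, against -0.37, -0.45 and -0.52 in fresh salt. It read -0.94, -1.20 and -0.87 at aged 10 ppm and -0.86, -1.06 and -0.77 at aged 20 ppm, against -0.61, -0.43 and -0.32 in aged salt. It read -0.53, -0.56 and -0.65 at pure 1.25 ppm and -1.81, -0.94 and -0.81 at pure 2.5 ppm, against -0.21, -0.00 and -0.24 in pure salt. Its replicates lay close together except pure 2.5 ppm replicate 4, and the SE of its differences, 0.20, was the smallest of the members. Its differences ran from -1.03 to -0.39 with and without the 5 arrays, and in the authors' values from -0.93 at pure 2.5 ppm to -0.24 at aged 10 ppm.

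UF_Ppr_AF_117885, the other member free of overlap, is on contig FJU.10623.C1 and is dimmer. It read -2.60, -3.12 and -2.86 at fresh 5 ppm and -3.44, -2.38 and -2.89 at fresh 10 ppm, against -1.87, -2.12 and -2.36 in fresh salt. It read -3.59, -3.10 and -3.01 at aged 10 ppm and -2.91, -2.95 and -3.10 at aged 20 ppm, against -2.77, -2.38 and -2.65 in aged salt. It read -2.15, -2.29 and -2.55 at pure 1.25 ppm and -3.83, -2.13 and -2.71 at pure 2.5 ppm, against -1.70, -1.61 and -1.68 in pure salt. The gap was narrow at fresh 10 ppm, where replicate 2 and the lowest salt array differed by little, and wide in the pure groups. Its salt controls differed in mean level. The mean at pure 1.25 ppm, -2.33, was above that of the aged salt control, -2.60, though arrays of these groups overlapped. Its differences without the 5 arrays were -0.52 at fresh 10 ppm, and in aged -0.85 at 10 ppm and -0.57 at 20 ppm, against -0.79, -0.63 and -0.38 with all arrays. In the authors' values its difference at aged 10 ppm turned to 0.49, while that at fresh 10 ppm was -1.81 and that at aged 20 ppm -0.78.

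UF_Ppr_AF_116541 had the lowest difference of the members at fresh 10 ppm and was brighter than the probes above. It read -0.19, 0.03 and 0.24 at fresh 5 ppm and -0.40, -0.06 and -0.78 at fresh 10 ppm, against 0.53, 0.76 and 1.12 in fresh salt. It read -0.41, -0.54 and -0.24 at aged 10 ppm and -0.65, -0.28 and -0.17 at aged 20 ppm, against 0.09, 0.61 and 0.20 in aged salt. It read 0.16, -0.16 and -0.25 at pure 1.25 ppm and -0.88, -0.15 and 0.21 at pure 2.5 ppm, against 0.00, 0.68 and 0.39 in pure salt. The fresh and aged groups did not overlap with their controls, and 1 array of each pure group did. Without the 5 arrays its difference was -1.23 at fresh 10 ppm, and the aged differences were -1.01 at 10 ppm and -0.90 at 20 ppm. In the authors' values these were -1.10, -0.85 and -1.07.

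UF_Ppr_AF_104438, on contig FJU.14054.C1, was dim and had close replicates in several groups. It read -2.90, -2.94 and -2.89 at fresh 5 ppm and -2.94, -2.54 and -3.11 at fresh 10 ppm, against -2.36, -2.36 and -2.43 in fresh salt. It read -3.03, -2.44 and -3.14 at aged 10 ppm and -2.94, -2.83 and -3.01 at aged 20 ppm, against -2.61, -2.34 and -2.18 in aged salt. It read -2.47, -2.88 and -2.29 at pure 1.25 ppm and -3.33, -2.58 and -2.48 at pure 2.5 ppm, against -2.0, -1.96 and -1.80 in pure salt. Only aged 10 ppm overlapped with its control, through replicate 2. Its pure salt control was also the highest of the 3 salt controls. With the 5 arrays left out, its differences ran from -0.87 to -0.44. In the authors' values its difference at aged 10 ppm was above 0, at 0.06, and that at fresh 10 ppm was -1.49.

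UF_Ppr_AF_106623 had the lowest difference at aged 10 ppm, -1.31. It read -4.36, -3.92 and -4.06 at aged 10 ppm and -3.57, -3.45 and -3.01 at aged 20 ppm, against -3.32, -3.41 and -1.67 in aged salt. It read -3.77, -4.38 and -3.40 at fresh 5 ppm and -2.20, -3.34 and -4.52 at fresh 10 ppm, against -2.96, -3.26 and -2.44 in fresh salt. Fresh 10 ppm replicate 1 and aged salt replicate 9, both among the 5 arrays, were its brightest readings. Its differences moved with them: for fresh 10 ppm it was -0.46 with all arrays and -1.04 without the 5. The aged difference was -1.31 with all and -0.71 without the 5 for 10 ppm, and -0.55 and -0.05 for 20 ppm. In the authors' values the aged direction turned at both doses, to 0.06 for 10 ppm and 0.31 for 20 ppm. In the pure groups it overlapped with its control at both doses, with differences of -0.48 at 1.25 ppm and -0.54 at 2.5 ppm.

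The remaining probes of the first 10 ranks averaged between -0.76 and -0.64 over the 6 differences. UF_Ppr_AF_117364 had differences from -1.01 to -0.53 and UF_Ppr_AF_118394 from -0.96 to -0.44, and both were bright, at or above 0 on nearly every array. UF_Ppr_AF_112763 had differences from -1.02 to -0.50 and UF_Ppr_AF_107498 from -0.79 to -0.45. UF_Ppr_AF_116913 had differences from -1.09 to -0.45 and, like UF_Ppr_AF_106623, its highest readings were -2.27 at fresh 10 ppm replicate 1 and -2.19 at aged salt replicate 9. Left without the 5 arrays, the least negative difference was -0.18 in UF_Ppr_AF_117364, -0.08 in UF_Ppr_AF_107498 and -0.41 in UF_Ppr_AF_116913, all at aged 20 ppm. It was -0.31 in UF_Ppr_AF_112763, at aged 10 ppm, and -0.58 in UF_Ppr_AF_118394, at pure 1.25 ppm. In the authors' values UF_Ppr_AF_116913 turned to 0.11 at aged 10 ppm and UF_Ppr_AF_112763 was -0.04 at aged 20 ppm. In the same values UF_Ppr_AF_107498 had -1.54 for fresh 10 ppm and -1.52 for aged 20 ppm. Over the 300 member differences, 27 were below -1 and 193 below -0.5, and 5 members were below -0.5 in all 6 comparisons.

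The comparison that set a member's place was most often aged 20 ppm. It was the least negative of the 6 for 20 members, pure 1.25 ppm for 12, fresh 10 ppm for 8, fresh 5 ppm and aged 10 ppm for 4 each and pure 2.5 ppm for 2. The most negative was aged 10 ppm for 19, pure 2.5 ppm for 19, fresh 10 ppm for 10, and fresh 5 ppm and aged 20 ppm for 1 each, and it was pure 1.25 ppm for 0 members. With the arrays that stood apart left out, aged 20 ppm was least negative for 24 members and aged 10 ppm for 12, while fresh 10 ppm and pure 2.5 ppm were most negative for 24 members each and aged 10 ppm for 1.

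On single arrays the median over the 50 members separated exposed from control larvae, which the choice of members favours. It was -2.61 to -1.60 on the 18 exposed arrays, with a median of -1.88, and -1.50 to -0.78 on the 9 salt arrays, with a median of -1.23. On the arrays that did not stand apart the ranges were -2.61 to -1.61 on 15 exposed arrays and -1.50 to -0.98 on 7 salt arrays. The lowest array was pure 2.5 ppm replicate 4, and the lowest salt array was aged salt replicate 8. By group the array medians averaged -1.91 ± 0.19 at fresh 5 ppm and -1.98 ± 0.39 at fresh 10 ppm, against -1.20 ± 0.19 in fresh salt (SD, n = 3 each). They averaged -1.91 ± 0.27 at aged 10 ppm and -1.84 ± 0.05 at aged 20 ppm, against -1.17 ± 0.36 in aged salt (SD, n = 3 each). They averaged -1.91 ± 0.18 at pure 1.25 ppm and -1.97 ± 0.56 at pure 2.5 ppm, against -1.19 ± 0.07 in pure salt (SD, n = 3 each).

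Exposed and salt arrays were not spread evenly over the 4 slides. Slide 1 held 6 exposed arrays and 0 salt arrays, slide 2 held 3 and 4, slide 3 held 3 and 4, and slide 4 held 6 and 1. The member medians on slides 2 and 3 were -2.37 to -2.04 and -2.61 to -1.79 on exposed arrays, against -1.28 to -0.98 and -1.50 to -1.13 on salt arrays. On slide 4 they were -2.09 to -1.60 on exposed arrays against -0.78 on its salt array, which stood apart. The 2 rows of arrays on a slide were unbalanced too, with 12 exposed and 2 salt arrays in row 1 and 6 and 7 in row 2.

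Within a slide the members were mostly still lower, with 1 or 2 arrays on a side and so no error. Fresh 5 ppm on slide 3 had 49 members below 0 (median -0.53), and fresh 10 ppm on slide 2 had 50 (median -1.28). Aged 10 ppm had 50 on slide 2 (median -0.61) and 50 on slide 4 (median -1.07), and aged 20 ppm had 41 on slide 3 (median -0.29) and 48 on slide 4 (median -0.78). Each of the aged values rests on at least 1 array that stood apart. Pure 1.25 ppm on slide 2 had 46 members below 0 (median -0.53), and pure 2.5 ppm on slide 3 had 50 (median -1.35). The exposed array was replicate 3 for fresh 10 ppm, with a member median of -2.37. It was replicate 4 for pure 2.5 ppm, with a member median of -2.61. Each was the lowest array of its group by that median, so these 2 falls rest on a low array. Of the 10108 probes, 45.8% to 59.5% were below 0 in these comparisons. With slide as a block in the fit, the medians in the order fresh 5 and 10, aged 10 and 20, pure 1.25 and 2.5 ppm were -0.81, -0.85, -0.74, -0.55, -0.73 and -0.97. With the row as a block they were -0.56, -0.55, -0.62, -0.49, -0.49 and -0.73. These arrays also chose the members, so the part of slide and row in the falls was not tested.

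Without the 5 arrays, the members' median was -0.78 at fresh 10 ppm, while for aged it was -0.50 at 10 ppm and -0.39 at 20 ppm, and the other 3 medians use none of them. All 50 members were below 0 in 5 of the 6 comparisons and 44 were at aged 20 ppm, where 1 exposed array is set against 1 salt array. The 6 members above 0 there reached 0.55, in UF_Ppr_AF_114714. In the authors' value table, all 50 members were lower at both fresh and both pure doses, 46 at aged 20 ppm and 35 at aged 10 ppm, and 34 were lower in all 6. Which probes make up the 50 depends more on these choices: the same rule kept 14 of the members without the 5 arrays and 12 in the authors' values.

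A check on other arrays was to choose 50 probes from 2 sources and read them in the source left out. This is the same measure on arrays whose differences the choice did not use, and the lists differ from the members. All 27 arrays still entered it through the requirement of a signal well above background. The 3 sources also shared the slide layout, with 8 of the 9 replicate numbers each on 1 slide in all sources. The check therefore cannot set slide apart from exposure, and the part of slide was not tested. The 50 probes chosen without pure, 20 of them members, were below 0 for 46 at pure 1.25 ppm and 48 at pure 2.5 ppm. Of all 10108 probes, 52.6% and 58.3% were below 0 there. The medians of the 50 were -0.36 and -0.53, against -0.02 and -0.06 over all those probes. Of these 50, 3 at pure 1.25 ppm and 18 at pure 2.5 ppm were lower at an unadjusted p below 0.05, against 3.10% and 8.47% of all those probes. With the list chosen anew for each array left out, the median at pure 1.25 ppm was -0.20 without pure 1.25 ppm replicate 2. That at pure 2.5 ppm was -0.34 without pure 2.5 ppm replicate 4 and -0.34 without aged 20 ppm replicate 5. UF_Ppr_AF_104438 was the only 1 called by limma after adjustment, at pure 2.5 ppm, and at pure 1.25 ppm 0 were called. That call was lost in 17 of the 27 fits that left out 1 array and with several other settings, listed with the processing.

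The 50 probes chosen without aged, 17 of them members, were below 0 for 50 at aged 10 ppm and 48 at aged 20 ppm. Of all probes, 52.9% and 49.2% were below 0 there. The medians of the 50 were -0.52 and -0.31, against -0.03 and 0.01 over all probes. Of the 50, 18 and 2 were lower at an unadjusted p below 0.05, against 13.1% and 2.05% of all probes. After adjustment limma called 0 of them at either dose. With the 5 arrays left out the list was chosen anew and a single aged salt array remained. Of that list 45 at aged 10 ppm and 34 at aged 20 ppm were below 0, against 49.7% and 40.4% of all probes. The medians of the list were -0.45 and -0.22.

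The fresh source gave a different picture at its higher dose. The 50 probes chosen without fresh, 8 of them members, were below 0 for 41 at fresh 5 ppm, with a median of -0.39 (-0.85 for the list chosen with slide as a fixed block and -0.20 for that after normexp background correction). Of all probes, 50.3% were below 0 at fresh 5 ppm. At fresh 10 ppm 19 of the 50 were below 0, against 40.3% of all probes. The median of the 50 there was 0.18, against 0.10 over all probes. Of the 50, 2 were lower at an unadjusted p below 0.05 at each dose, against 4.95% and 9.25% of all probes at 5 and 10 ppm. At fresh 10 ppm 1 was higher at that threshold. After adjustment limma called 0 of the 50 lower at either dose. Nothing is read from these few. The value at fresh 10 ppm depended on arrays that stood apart. Without the 5, in a list of 50 chosen anew, 46 were below 0, against 44.5% of all probes, and the median of the list was -0.56. Without fresh 10 ppm replicate 1 alone the median of the probes so chosen was -0.55. At fresh 5 ppm 42 of the list chosen without the 5 arrays were below 0, with a median of -0.45. Leaving out pure 1.25 ppm replicate 2 alone gave a median of -0.23 at fresh 5 ppm, and leaving out pure salt replicate 9 alone gave -0.26. With all arrays, UF_Ppr_AF_106069 and UF_Ppr_AF_118772 took the first 2 ranks in all 3 lists that left out a source. Each list was chosen on differences that also chose the members, among which these probes hold the first 2 ranks. Their place in the lists is therefore no separate check of them.

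The step between the 2 doses of a source is a difference of 2 values that chose the members. Asking that both lie well below the same control favours a small step without setting a limit to it. The rule does not set the sign of the step, and the few calls are not read as likeness of the doses. No member was called between 10 and 5 ppm of fresh, where limma called 0.0% of all probes, between 20 and 10 ppm of aged (0.0%) or between 2.5 and 1.25 ppm of pure (0.0136%). At an unadjusted p below 0.05 the counts were 0, 0 and 2 members, against 5.07%, 2.17% and 4.25% of the 10108 probes. Higher minus lower dose, the median member was at -0.01 in fresh, 0.14 in aged and -0.20 in pure, against 0.05, 0.07 and -0.04 over the 10108 probes. Members below 0 numbered 26 in fresh, 12 in aged and 43 in pure, against 42.5%, 35.6% and 58.1% of all those probes. The smallest adjusted p of a member was 0.554 in fresh, 0.839 in aged and 0.747 in pure (limma). The median step without the 5 arrays was -0.13 in fresh and 0.09 in aged, against 0.04 and 0.08 over the 10108 probes. Members below 0 then numbered 38 and 19, with 1 array left at aged 20 ppm.

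Both members that passed unadjusted in the pure step were lower at 2.5 ppm and had also been called there. UF_Ppr_AF_107291 stepped by -0.61 ± 0.20 (SE, limma, unadjusted p = 0.00552, adjusted p = 0.747). UF_Ppr_AF_112506 stepped by -0.50 ± 0.23 (SE, limma, unadjusted p = 0.0445, adjusted p = 0.9998). In UF_Ppr_AF_112506 the 2.5 ppm arrays read -3.10, -2.30 and -2.71 and the 1.25 ppm arrays -2.08, -2.33 and -2.21, so the groups overlapped, and the pure salt arrays read -1.67, -1.81 and -1.71. Replicate 4 at 2.5 ppm was the lowest array of all by the member median. On slides 1 and 4, each with 1 array of both pure doses and neither holding replicate 4, 18 and 24 members were below 0 and the median steps were 0.15 and 0.01. The steps of the first 2 ranks were 0.14 ± 0.62 and 0.52 ± 0.64 in fresh and -0.62 ± 0.62 and -0.45 ± 0.64 in pure (log2, SE).

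Fresh and aged process water share only the dose of 10 ppm, and there no member was called for a difference between them. Both effects are values that chose the members, and requiring both to be low favours a small difference without setting a limit to it. The fresh effect minus the aged effect had a median of 0.05 over the members, and 22 were below 0. Over the 10108 probes the median was 0.02 and 48.7% were below 0. Limma called 0 members, with 0.0% of all probes called. No member passed an unadjusted p below 0.05, against 21.7% of the 10108 probes, and nothing is read from that gap, which the choice of members favours. The smallest adjusted p was 0.313, in UF_Ppr_AF_116541, at -0.52 ± 0.37 (SE, limma). The error of the difference was large for the leading probes: it was -0.10 ± 0.87 in UF_Ppr_AF_106069 and 0.03 ± 0.90 in UF_Ppr_AF_118772. Among the first 10 ranks it ran from -0.60 ± 0.46 in UF_Ppr_AF_112859 to 0.85 ± 0.70 in UF_Ppr_AF_106623. Without the 5 arrays the median over the members was -0.26 and 39 were below 0, so its sign depends on them. Missing the threshold does not show that both waters lowered these probes alike, and the other doses differ between the sources, so only their values are given side by side.

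The salt controls of the 3 sources were compared with one another, since the rule does not set their order, although it used all 3 and favours probes that read high in each. The median member difference was -0.00 for fresh salt minus aged salt, with 25 members below 0. It was -0.13 for fresh salt minus pure salt, with 36 below 0, and -0.10 for aged salt minus pure salt, with 34 below 0. Over the 10108 probes the medians of the same 3 comparisons were -0.02, -0.04 and 0.01, with 52.1%, 56.4% and 49.1% below 0. Limma called 0 members in each, against 0.0%, 0.00679% and 0.00679% of all probes, and 0, 1 and 2 members passed an unadjusted p below 0.05, against 15.5%, 5.92% and 16.0% of the 10108, with UF_Ppr_AF_104438 passing in both comparisons with pure salt. UF_Ppr_AF_117885 had the smallest p among them, with a difference of -0.94 ± 0.31 for aged minus pure salt (SE, limma, unadjusted p = 0.00702, adjusted p = 0.261). The aged salt control holds arrays that stood apart, so nothing is read from the shares of probes that passed in its comparisons. Without the 5 arrays the medians were 0.20, -0.13 and -0.32, with 14, 36 and 44 members below 0. The first and the last of these rest on aged salt replicate 8 alone.

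Within groups the members went up and down together. After the mean of its group was taken from each array, the median correlation over the 1225 pairs of members was 0.467 across the 27 arrays, with quartiles of 0.262 and 0.629, and 1128 pairs were above 0. Between probes that could be chosen the median was 0.001. The medians were 0.555 and 0.019 without the 5 arrays. The arrays share scaling and slides and the members share a rule, so no p is given. The closest pairs were UF_Ppr_AF_115947 with UF_Ppr_AF_105318 (r = 0.937), UF_Ppr_AF_106069 with UF_Ppr_AF_118772 (r = 0.931) and UF_Ppr_AF_106623 with UF_Ppr_AF_102095 (r = 0.920). Without the 5 arrays r was 0.942 for the first of these pairs and 0.926 for the second.

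A probe could follow a member closely across arrays and still not be lowered like it. UF_Ppr_AF_117117 is no member, but had a within-group correlation of 0.922 with UF_Ppr_AF_106069 across the 27 arrays and 0.912 without the 5. With all 27 arrays its differences were -0.49 at 5 ppm and -0.33 at 10 ppm of fresh and -0.93 at 10 ppm and -1.40 at 20 ppm of aged. They were 0.36 at 1.25 ppm and -0.31 at 2.5 ppm of pure, so only pure 1.25 ppm was above 0. Its differences without the 5 arrays are not given here. It was 1 of the 2 probes most like that member by this measure, the other being UF_Ppr_AF_118772.

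The members were dimmer and more variable than the probes they were chosen from. Their median level was -1.58, against -0.82 over the 10108 probes, and with those probes cut into 4 equal classes from dimmest to brightest, 16, 17, 13 and 4 members fell in each. The median within-group SD was 0.393 for the members and 0.281 for all 10108 probes. The rule chose large differences on these same arrays, which favours variable probes, so nothing is read from the level or the SD. Of the members, 38 (76%) carry contig names and 12 (24%) sequence numbers, against 85.2% and 14.6% of the probes that could be chosen. They were spread over the array, with 28 above its middle row and 30 left of its middle column, and 1 of their spots was flagged as not uniform.

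No 2 members carry the same contig name or sequence number, so none is known from the files to measure the same transcript as another. Another probe of the array shares the name of 6 members. For 5 of these that probe was well above background on only 2 to 5 of the 27 arrays and gives no usable second reading. The exception is UF_Ppr_AM_119285, which shares contig FJU.8280.C2 with UF_Ppr_AF_116743. It was well above background on all 27 arrays, its differences ran from -0.59 to 0.30 with 2 of 6 below 0, and its within-group correlation with the member was 0.15 without the 5 arrays. The member's own differences ran from -0.88 to -0.37, so the readings of these probes differed. Names were matched without the suffix that follows them, and whether both probes read the same strand was not checked. The difference is therefore not read as a disagreement over 1 transcript.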

How the data were processed

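Total RNA of newly hatched fathead minnow larvae was measured on 27 one-colour arrays, grouped by the exposure in their labels. The scanner files held processed, median and local background intensities on a linear scale, deposited without scaling between arrays (per the file headers the software was Agilent Feature Extraction 10.7.1.1). Flags that mark a spot as well above background, as saturated or as not uniform were used as deposited, coded 0 or 1. The authors' value table gives log2 signals for these arrays. They rise with the scanner signal and are not centred by probe. For their background step and normalization, the sources used here state nothing. The number of arrays limits the precision.

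From the log2 processed signal of each array its 75th percentile was subtracted, for the 15208 probes that are not control spots (536 of 15744 spots were controls). Probes well above background on at least 3 of 27 arrays (14738) entered 1 fit of group means to all 27 arrays, which left 18 residual degrees of freedom (limma 3.58.1 under R 4.3.3). Calls needed an adjusted p below 0.05, with Benjamini-Hochberg adjustment across every probe in the fit. Of these, 10108 probes were well above background on every array, and the 50 members were chosen from them by the rule in the report. The members, the lists and the 5 arrays left out were chosen with earlier results of these data known. Probes were named by rank (the first 10), as lowest in a comparison, as nearest the limit or as called, and UF_Ppr_AF_107291, UF_Ppr_AF_117885, UF_Ppr_AF_104638, UF_Ppr_AF_112506, UF_Ppr_AF_113381, UF_Ppr_AF_114714, UF_Ppr_AF_117117, and the pairs with a high correlation or a shared name, were named after their values were seen. The gene and marker lists planned for named probes could not be applied, since the files and the reference table (64593 genes, 0 matches) give the probes no gene. The fits were checked on simulated data.

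Alternatives were quantile normalization, normexp background correction (offset 50, on the median signal, as the mean signal was not used here), the authors' values, other filters on dim probes, slide as a fixed or random block, the replicate number as a block, fewer groups, no array that stood apart, and each array left out. Leaving out spots flagged as not uniform and the array row as a block were chosen after seeing the data.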

Additional observations from a re-analysis of the deposited data

How the results depend on the processing

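The median of the members stayed below 0 in all 6 comparisons under quantile normalization, normexp, the authors' values, slide or array row as a fixed block, without the 5 arrays, without flagged spots and with each array left out, the alternatives run for it, and its size moved by more than the spread between replicates in few: at fresh 10 ppm it was -1.11 after quantile normalization and -1.08 in the authors' values, at aged 10 ppm it was -0.34 after quantile normalization, and at pure 2.5 ppm it was -0.13 after normexp. Within that spread but by over 1.5 times, it moved to -0.32 at fresh 5 ppm and -0.19 at aged 20 ppm after normexp, -0.40 at aged 10 ppm in the authors' values, and -0.85 at fresh 10 ppm and -0.73 at pure 1.25 ppm with slide as a fixed block. No alternative called a member in a step between doses or in the fresh minus aged difference, and 1 member was called between aged and pure salt only without aged salt replicate 8 (0 to 1 with each array left out). Membership depended most on the choices: the rule kept 18 of the 50 members after quantile normalization, 14 after normexp, 12 in the authors' values, 21 with slide as a fixed block, 14 without the 5 arrays that stood apart, 31 with the array row as a block and 18 (without fresh 10 ppm replicate 1) to 49 with each array left out. UF_Ppr_AF_116541 alone was kept in the first 5 of these settings, and 4 members were kept in all 27 fits that left out an array.

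The lists that leave out a source were chosen anew in each setting. For the probes chosen without fresh, the median at fresh 10 ppm changed sign. It was 0.18 in the main fit, -0.40 after quantile normalization, -0.40 after normexp and -0.81 in the authors' values. It was -0.050 with slide as a fixed block and -0.56 without the 5 arrays. With each array left out it ran from -0.55 to 0.66, below 0 without fresh 10 ppm replicate 1 (-0.55) and without aged salt replicate 9 (-0.41). Quantile normalization called 3 of its list lower at fresh 10 ppm and 1 at fresh 5 ppm. The authors' values called 1 at fresh 10 ppm, and leaving out each array called 0 to 2 at fresh 10 ppm. For the probes chosen without aged, the median at aged 10 ppm was -0.85 with slide as a fixed block, that at aged 20 ppm was -0.20 after normexp, -0.50 in the authors' values and -0.52 with slide as a fixed block, and leaving out each array called 0 to 6 lower (6 without aged salt replicate 8). For those chosen without pure, slide as a fixed block gave medians of -0.70 at pure 1.25 ppm and -0.85 at pure 2.5 ppm and called 2. The call of 1 at pure 2.5 ppm was 0 with normexp, with only the groups of the source, with the array row as a block and with the replicate block, and 0 to 3 with each array left out. The median within-group correlation was 0.352 after quantile normalization and 0.34 to 0.49 with each array left out, lowest without pure 2.5 ppm replicate 4. The causes of these changes were not tested. The share of all probes called in each of these settings is not given here. Nothing is therefore read from the counts of calls in this section.

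The labels do not say that a replicate number marks a shared batch, but 8 of the 9 numbers each lay on 1 slide in all sources, so the replicate block overlaps with slide, whose own block is given above. Within a source each number occurs in only 1 group. The replicate block therefore pairs no exposed array with a salt array and cannot adjust a difference between them. Same-numbered arrays correlated from -0.31 to 0.41 over 27 pairs, and 11 of 27 arrays correlated best with their own number. With 3 arrays a group, 1 array decides many of the values, and dim members have the least signal over background.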
